A study of Mus musculus with 4 samples.

Results

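The genes of Polycomb and trithorax chromatin regulation were followed in mouse progenitor cells measured on 4 Affymetrix MOE430_2 arrays, 2 of CLP_RAGhigh and 2 of CLP_RAGlow cells. The set was a list of 37 genes defined by gene function, and each gene was read from the probe set with the highest mean over the 4 arrays among those annotated to that gene alone. Of the 37 genes, 36 were measured, among 18193 genes in all. They were 8 of Polycomb repressive complex 2 (PRC2), 18 of Polycomb repressive complex 1 (PRC1), 5 demethylases and deubiquitinase subunits, and 5 of the trithorax group. The gene without a value was Rybp, a PRC1 subunit, because both of its 2 probe sets are annotated to a pseudogene as well.

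Both groups are fractions of the common lymphoid progenitor (CLP), a bone marrow cell from which B cells and other lymphocytes descend. All samples came from bone marrow of C57Bl6 mice 8 to 12 weeks old, with 2000 cells per sample, and no group was treated. CLP_RAGhigh cells were sorted for high and CLP_RAGlow cells for low GFP. The labels name the groups after RAG, the recombinase of antigen receptor genes, but do not describe the GFP allele or say whether animals were pooled. They call the replicates biological without saying whether these were separate animals, so p-values here measure only the spread between these samples.

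Polycomb proteins keep developmental genes silent. PRC2 methylates lysine 27 of histone H3, and PRC1 adds ubiquitin to histone H2A and compacts chromatin. Trithorax complexes methylate lysine 4 of histone H3 and oppose that silencing. In blood progenitors, Bmi1 and Ezh2 are known for sustaining self-renewal and for the early steps of B-cell development.

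Array medians of the deposited intensity lay between 14.6 and 14.9, and with 4 arrays their number sets the precision. All 8 measured markers of the labelled cell type had a mean at or above the median of all probe sets, and their mean log2 level per array lay between 9.05 and 10.24. Rag1, after which the groups are named, read 10.92 and 10.62 in CLP_RAGhigh against 7.72 and 8.53 in CLP_RAGlow. CLP_RAGhigh replicate 1 stood apart in the immediate early genes, with Fos at 12.27 there and between 5.17 and 7.28 on the other 3 arrays. The ratio of 3' to 5' signal for Actb ran from 9.62 on CLP_RAGhigh replicate 2 to 24.5 on CLP_RAGlow replicate 2. Marker lists of other cell types were read as mean log2 levels per array. They lay between 3.74 and 3.99 for 10 bone marrow stroma genes, 3.73 and 4.24 for 10 T-cell genes, 3.92 and 4.20 for 10 natural killer cell genes and 3.86 and 4.71 for 10 erythroid and megakaryocyte genes. The means of 9 mature B-cell genes lay between 6.15 and 6.47, and those of 10 plasmacytoid dendritic cell genes between 6.98 and 7.39. Lists rest on different probe sets, so their levels do not rank the cell types. The 14 granulocyte and monocyte genes had means of 7.05 and 6.87 in CLP_RAGhigh and 7.66 and 5.63 in CLP_RAGlow. Their part in the results below was not tested. In bulk samples, fewer cells of a type and less RNA per cell cannot be told apart.

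None of the 36 chromatin regulators was shown to differ between the progenitor fractions. With limma, 0 of the 36 genes passed an adjusted p under 0.05, where the background was 0% of 18193 genes, and 0 passed at an unadjusted p under 0.05, where 2.35% of all genes lay above and 2.94% below. With limma, the adjusted p was 0.939 for Yaf2, 0.95 for Cbx6 and at least 0.979 for the other 34. The mean was higher in CLP_RAGhigh for 19 of the 36 genes, where 50.6% of all genes lay above 0, and lower for 17. The median log2 difference was 0.012, beside 0.0028 over all genes. The differences ran from -0.82 for Cbx6 to 0.90 for Yaf2.

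**Figure D1:**
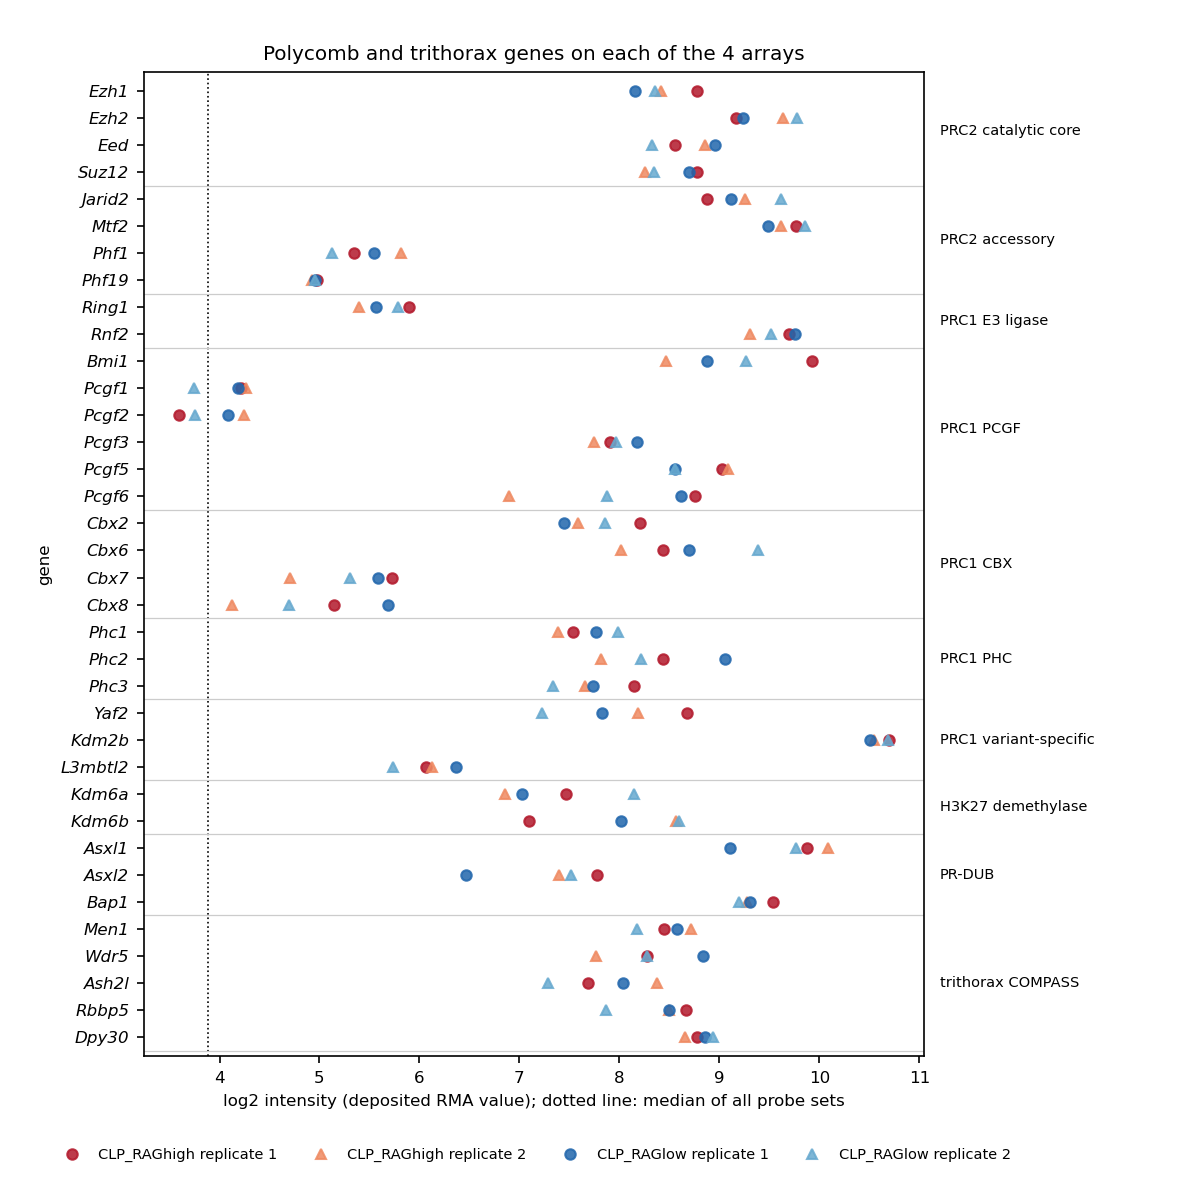
The log2 intensity (horizontal axis) of each of the 36 genes (vertical axis, grouped by role) on each array, red or orange for CLP_RAGhigh and dark or light blue for CLP_RAGlow, with circles for replicate 1 and triangles for replicate 2. The colours are mixed for most genes. In CLP_RAGhigh, the replicates of Bmi1, Pcgf6, Cbx7, Cbx8 and Kdm6b lie more than 1 log2 unit apart.

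The spread between replicates set the limit. For 30 of the 36 genes (83.3%), the wider of the gaps between replicates exceeded the difference of the group means, as it did for 80.0% of all genes. The groups did not overlap for 11 genes. In 6 of them (16.7%) CLP_RAGhigh was the higher group, beside 15.4% of all genes, and in 5 (13.9%) the lower, beside 15.8%. Both shares were near the background. The 95% interval of the difference lay wholly within 2-fold in either direction for 14 of the 36 genes, or 38.9% beside 52.6% of all genes. For the other 22 genes, a change of 2-fold in at least 1 direction lay inside the interval.

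**Figure D2:**
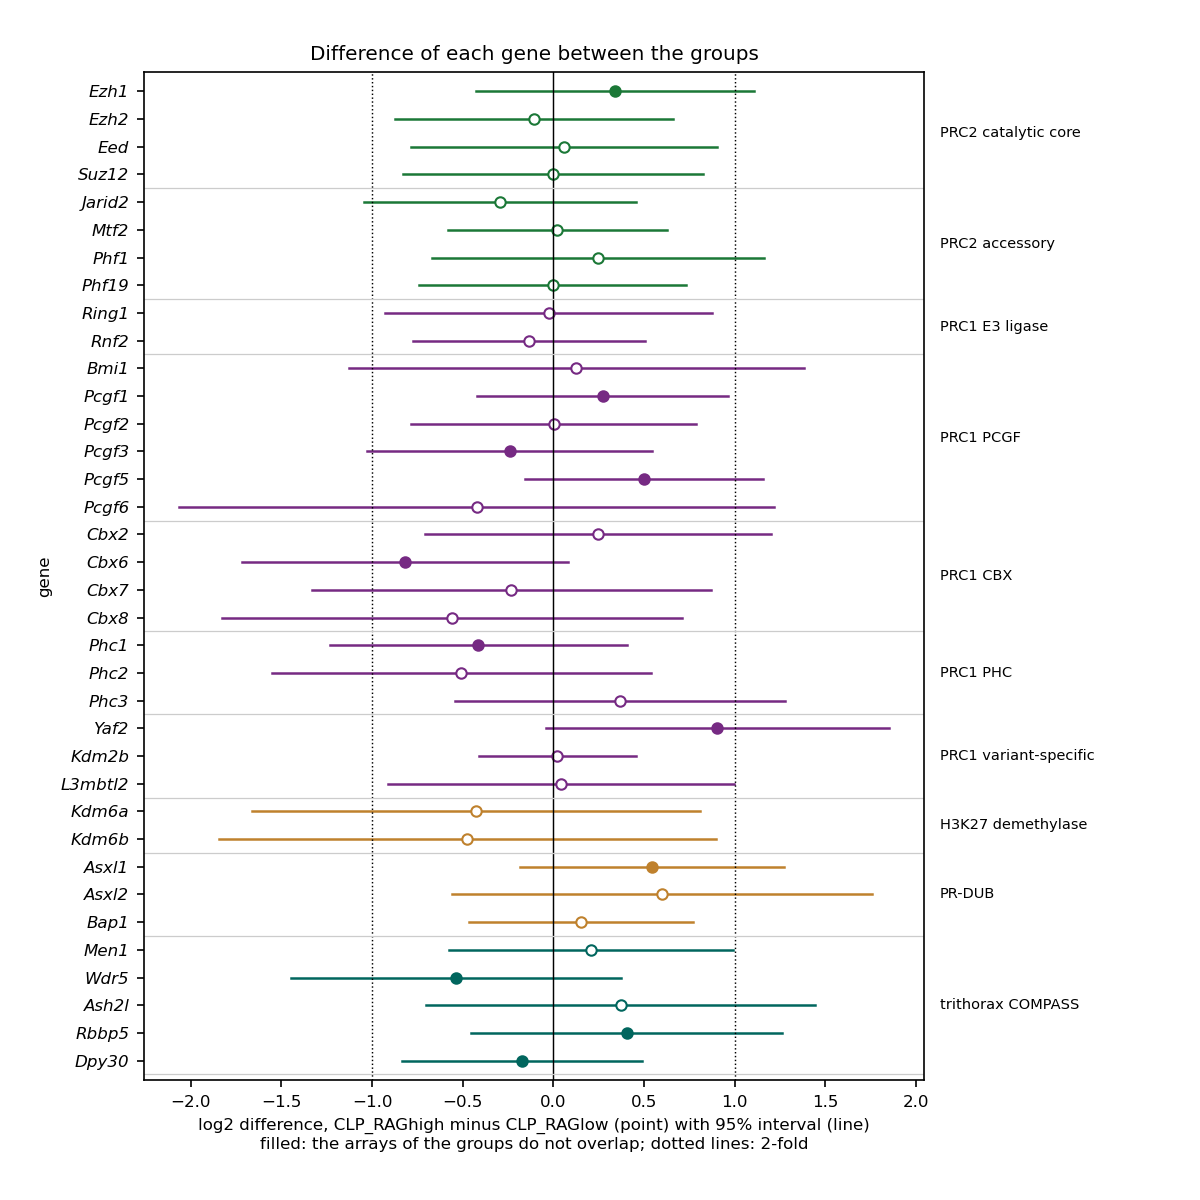
The log2 difference of each gene, CLP_RAGhigh minus CLP_RAGlow, with its 95% interval from the limma fit (n = 2 per group), coloured by complex and filled where the groups had no overlap. Every interval crosses 0, and those of Yaf2 (-0.04 to 1.85) and Cbx6 (-1.72 to 0.08) come closest to leaving it out.

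The PRC2 core consists of the methyltransferases Ezh2 and Ezh1 and their partners Eed, which binds the methylated histone, and Suz12, which holds the complex together. Ezh2 had log2 intensities of 9.16 and 9.64 in CLP_RAGhigh and of 9.24 and 9.78 in CLP_RAGlow. The groups overlapped, and within each group replicate 2 was the higher array. The difference of -0.11 ± 0.31 (SE, n = 2 per group) did not pass with limma, with an adjusted p of 1 and a 95% interval from -0.87 to 0.66. Ezh1, the paralogue that is more common in resting cells, read 8.77 and 8.41 in CLP_RAGhigh and 8.15 and 8.35 in CLP_RAGlow. These did not overlap, by a margin of less than the gap between replicates, and the difference of 0.34 ± 0.31 did not pass. Without probe sets whose names end in _x_at, _s_at or _a_at, another Ezh1 probe set was used and the difference was -0.28. That probe set read between 1.82 and 2.52, below the median of all probe sets, 3.88, so its difference may be background. Eed, at 8.55, 8.85, 8.96 and 8.33 in the order CLP_RAGhigh replicates 1 and 2 and CLP_RAGlow replicates 1 and 2, differed by 0.06 ± 0.34. Suz12, at 8.78, 8.26, 8.69 and 8.35 in the same order, differed by -0.0031 ± 0.34.

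Cell cycle genes were read beside PRC2, since E2F factors, the activators of S phase genes, are known to drive Ezh2 as well. The list of 22 measured G2 and M phase genes had a median log2 difference of -1.17 and that of 23 S phase genes of -0.48, lower in CLP_RAGhigh. At an unadjusted limma p under 0.05, 7 G2 and M phase genes and 5 S phase genes were lower, beside 2.94% of all genes. None of either list was higher, beside 2.35% of all genes, and 0 passed after adjustment over all genes. The 8 PRC2 genes had a median of 0.0097 beside these, or 0.22 with the probe sets of each gene averaged. Promoters were searched for the E2F site variants TTTCCCGC, TTTGGCGC, TTTCGCGC and TTTGCCGC on both strands, from 250 bases before to 50 after each RefSeq start (build GRCm38.p6). Windows were found for 31 of the 37 genes, and 3 of the 31 held a site, all of them PRC2 genes. By windows, that was 6.67% of 45, beside 2.26% of all RefSeq windows and 3.21% of those of the genes tested. The share was 6.25% of 32 windows for further Polycomb subunits, 5.26% of 19 for G2 and M phase genes and 39.1% of 23 for S phase genes. The 3 sites are shown because they name the PRC2 genes that hold one of the variants. Which variants the S phase genes hold was not read. Each is given 5′ to 3′ along the gene, with the site in capitals.
Ezh2 (chr6:47595009-47595038, minus strand, first base of the site at position 4 after the start): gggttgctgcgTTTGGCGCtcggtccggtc
Suz12 (chr11:79992876-79992905, plus strand, first base of the site 219 bases before the start): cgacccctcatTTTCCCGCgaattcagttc
Phf19 (chr2:34914166-34914195, minus strand, first base of the site 208 bases before the start): gtcaataattcGCGGGAAAacgcgaaaaag
The site of Phf19 is TTTCCCGC on the opposite strand. The log2 differences of these 3 genes were -0.11, -0.0031 and -0.0026, the smallest in size of which belongs to Phf19. A match of letters in a window is a description and not a measured binding site.

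**Figure D3:**
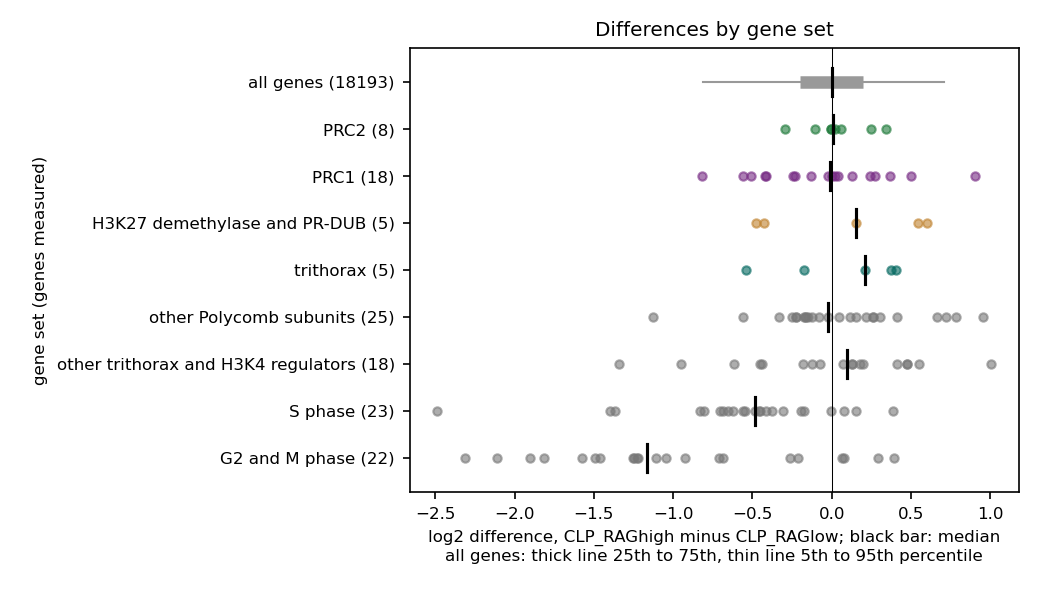
Log2 differences between CLP_RAGhigh and CLP_RAGlow for single genes (points) by gene set, with the median as a black bar and all 18193 genes as a percentile range. The PRC2 and PRC1 medians lie at 0.0097 and -0.013 (PRC2 at 0.22 with probe sets averaged, which is not drawn), while the S phase and G2 and M phase medians lie at -0.48 and -1.17.

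Accessory subunits of PRC2 steer the complex to its sites. Jarid2, a subunit that stimulates the enzyme, read 8.88 and 9.26 in CLP_RAGhigh and 9.12 and 9.61 in CLP_RAGlow, and the groups overlapped. It differed by -0.29 ± 0.30, and its 3 probe sets ran from -0.42 to -0.10. The others were the Polycomb-like proteins Mtf2, Phf1 and Phf19, which bind DNA or methylated histone. Mtf2 lay between 9.48 and 9.85 on all 4 arrays and differed by 0.02 ± 0.24. The Phf19 probe set used lay between 4.93 and 4.98, while its second one read 4.11 and 4.95 in CLP_RAGhigh and 4.05 and 4.14 in CLP_RAGlow, a difference of 0.43. Phf1 lay between 5.12 and 5.82 with a difference of 0.25 ± 0.37. The means of 4 PRC2 genes were higher and of 4 lower in CLP_RAGhigh, and all 8 had a replicate gap wider than their difference.

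PRC1 is built on the ubiquitin ligases Ring1 and Rnf2. Rnf2 read 9.70 and 9.31 in CLP_RAGhigh and 9.76 and 9.51 in CLP_RAGlow, with both groups covering nearly the same range. It differed by -0.13 ± 0.26, with a 95% interval from -0.77 to 0.51, so that a 2-fold change lay outside it. Ring1 lay between 5.40 and 5.90 and differed by -0.03 ± 0.37.

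Each PRC1 complex holds 1 PCGF protein, which sets its type. Bmi1, the PCGF protein of canonical PRC1 that represses Cdkn2a, read 9.92 and 8.47 in CLP_RAGhigh and 8.87 and 9.27 in CLP_RAGlow. The CLP_RAGhigh arrays were the highest and the lowest of the 4, a gap of 1.45 between replicates, and the difference was 0.13 ± 0.51. Without CLP_RAGhigh replicate 1 it was -0.60. A second Bmi1 probe set, at 7.99, 8.22, 7.88 and 7.76 in the order given above, had a difference of 0.28 and no such gap. Pcgf5, of a variant PRC1, showed the tightest replicates of the genes that separated, at 9.03 and 9.09 in CLP_RAGhigh and 8.56 and 8.55 in CLP_RAGlow. Its difference of 0.50 ± 0.27 (1.42-fold) had an adjusted limma p of 0.979. Its 2 other probe sets had differences of 0.29 and -0.22, and in both the arrays of the groups overlapped. Pcgf6, of the germline-gene repressing variant, had the widest replicate gap of the 36 genes, 8.75 against 6.90 in CLP_RAGhigh, beside 8.62 and 7.88 in CLP_RAGlow. Its difference of -0.42 ± 0.66 turned to 0.30 with its probe sets averaged. The other Pcgf6 probe sets had means below the median of all probe sets, so their differences may be background. Pcgf3 differed by -0.24 ± 0.32 and did not overlap between groups. Pcgf1 and Pcgf2 were near the median of all probe sets, 3.88, with values between 3.60 and 4.26, and differed by 0.27 and 0.0015.

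CBX proteins bring canonical PRC1 to methylated histone H3 through a chromodomain. Cbx6 had the largest lower value in CLP_RAGhigh of the 36 genes, with 8.44 and 8.01 there and 8.70 and 9.39 in CLP_RAGlow. The groups did not overlap, though the nearest arrays were 0.26 apart, less than the gap between replicates in either group. The difference was -0.82 ± 0.36 or 0.567-fold, with an adjusted limma p of 0.95, and it ran from -1.16 to -0.47 when 1 array was left out. A second Cbx6 probe set, at 6.12 and 5.25 in CLP_RAGhigh and 6.53 and 6.49 in CLP_RAGlow, gave -0.82 as well and did not overlap either. Cbx8 read 5.14 and 4.12 in CLP_RAGhigh and 5.69 and 4.70 in CLP_RAGlow, and differed by -0.56 ± 0.51 with overlapping groups. Leaving out CLP_RAGhigh replicate 1 gave -1.07 and leaving out CLP_RAGhigh replicate 2 gave -0.048. Cbx7, the CBX protein known from stem cells, lay between 4.70 and 5.73 and differed by -0.23 ± 0.45. Cbx2 was the one CBX gene with a higher mean in CLP_RAGhigh, at 0.24 ± 0.39.

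PHC proteins join PRC1 complexes into larger assemblies through their SAM domain. Phc1 read 7.54 and 7.38 in CLP_RAGhigh and 7.76 and 7.99 in CLP_RAGlow, without overlap, and differed by -0.41 ± 0.33 with an adjusted limma p of 0.998. Phc2 read 8.44 and 7.81 against 9.05 and 8.21, with overlap, and its 2 probe sets gave -0.51 ± 0.42 and -0.47. Without CLP_RAGlow replicate 1 the first of these was -0.087, and without CLP_RAGlow replicate 2 it was -0.93. Phc3, at 8.14 and 7.66 against 7.73 and 7.34, overlapped and differed by 0.37 ± 0.37, which turned to -0.10 with probe sets averaged. The other Phc3 probe set had a mean below the median of all probe sets.

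Variant PRC1 complexes hold Rybp or its paralogue Yaf2 in place of a CBX protein. Yaf2 had the largest difference of the 36 genes, with 8.67 and 8.19 in CLP_RAGhigh and 7.83 and 7.23 in CLP_RAGlow. The groups did not overlap, and the nearest arrays were 0.36 apart. The difference was 0.90 ± 0.38 or 1.87-fold, with an unadjusted limma p of 0.0580 and an adjusted p of 0.939. Its second probe set went the other way, at 6.53 and 5.72 in CLP_RAGhigh and 6.85 and 6.57 in CLP_RAGlow, a difference of -0.59 without overlap. Averaging the 2 probe sets gave 0.16, so these arrays give no single direction for Yaf2. Which probe set reads which Yaf2 transcript was not analysed here. Kdm2b, which brings a variant PRC1 to unmethylated CpG islands, lay between 10.51 and 10.69 on all 4 arrays. It differed by 0.02 ± 0.18, the smallest moderated SE of the 36 genes, with a 95% interval from -0.41 to 0.46. L3mbtl2, of the variant with Pcgf6, differed by 0.04 ± 0.39.

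**Figure D4:**
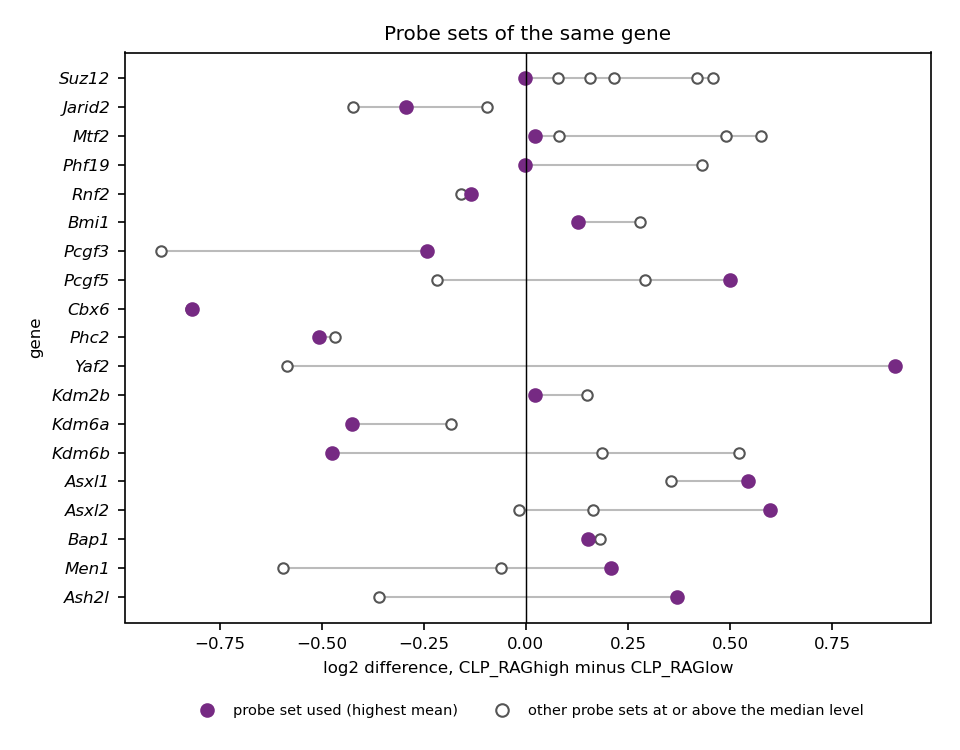
Log2 differences, CLP_RAGhigh minus CLP_RAGlow, of all probe sets at or above the median level for the 19 genes that have more than 1, with the probe set used in purple. The points of Cbx6 coincide at -0.82, while those of Yaf2 lie at 0.90 and -0.59.

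Agreement between probe sets of a gene was a further measure of reliability. The 36 genes had 90 probe sets, and 19 genes had more than 1 probe set whose mean reached the median of all probe sets. For 11 of these 19 genes, all such probe sets had the same direction, among them Cbx6, Phc2, Jarid2, Bap1, Asxl1 and Mtf2. For the other 8 they did not. Of the 30 probe sets of this kind beside those used, 16 had the direction of the one used and 14 the opposite. For Suz12, the 5 other probe sets ran from 0.08 to 0.46, all on the other side of 0 from the one used.

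The demethylases Kdm6a and Kdm6b remove the mark that PRC2 sets. Kdm6b, which is induced by inflammatory signals, read 7.10 and 8.56 in CLP_RAGhigh and 8.02 and 8.60 in CLP_RAGlow. It was lowest on CLP_RAGhigh replicate 1, the array with the high Fos value. Its difference of -0.47 ± 0.55 was 0.26 without that array, and its other probe sets gave 0.19 and 0.52. Kdm6a, an X-linked gene that escapes X inactivation, read 7.46 and 6.85 in CLP_RAGhigh and 7.03 and 8.14 in CLP_RAGlow, and differed by -0.43 ± 0.50. Without CLP_RAGlow replicate 2 the difference was 0.13. Genes of the sex chromosomes, chosen after their values were seen, were read beside it. Xist, the RNA of the inactive X chromosome, was at 6.28 on CLP_RAGhigh replicate 1 and between 9.82 and 10.39 on the other arrays, and Eif2s3y, a Y-linked gene, lay between 8.03 and 9.23 on all 4. Kdm5d, also Y-linked, lay between 6.93 and 7.85 on all 4. Uty, the Y-linked paralogue of Kdm6a, read 4.73 and 5.85 in CLP_RAGhigh and 1.96 and 3.68 in CLP_RAGlow. Its difference of 2.47 ± 0.65 did not pass, with an adjusted limma p of 0.745, and was 0.68 with probe sets averaged. The part of the sex of the animals in the Kdm6a values was not tested.

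The deubiquitinase complex PR-DUB removes the ubiquitin that PRC1 places on histone H2A, with Bap1 as the enzyme and Asxl1 or Asxl2 as its activator. All 3 genes had a higher mean in CLP_RAGhigh and none passed. Asxl1, which is often mutated in myeloid malignancy, read 9.88 and 10.09 in CLP_RAGhigh and 9.11 and 9.77 in CLP_RAGlow. The groups did not overlap, with the nearest arrays 0.11 apart, and the difference was 0.54 ± 0.29 or 1.46-fold, with an adjusted limma p of 0.979. Its other probe sets gave 0.35, with overlapping groups, and 0.22, from a probe set below the median level. Asxl2 read 7.77 and 7.40 in CLP_RAGhigh against 6.46 and 7.51, so that 1 low array, CLP_RAGlow replicate 1, carried most of its difference of 0.60 ± 0.47. Without that array it was 0.07. The other Asxl2 probe sets gave 0.16 and -0.017, and -0.46 and -0.34 from probe sets below the median level. Averaging all of them gave -0.010, so the direction of Asxl2 depended on the probe set. Bap1 lay between 9.20 and 9.54 and differed by 0.15 ± 0.25.

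The trithorax genes measured here encode the core shared by MLL and SET1 methyltransferases (Wdr5, Rbbp5, Ash2l and Dpy30) and Men1, which tethers MLL to its targets. Wdr5, the scaffold, read 8.28 and 7.76 in CLP_RAGhigh and 8.84 and 8.28 in CLP_RAGlow, so that the groups all but touched. It differed by -0.54 ± 0.37. Rbbp5 went the other way, at 8.67 and 8.49 against 8.49 and 7.87, and differed by 0.40 ± 0.35, or by 0.091 without CLP_RAGlow replicate 2. Ash2l differed by 0.37 ± 0.43 and Men1 by 0.21 ± 0.32, and for each another probe set was below 0, at -0.36 for Ash2l and at -0.06 and -0.59 for Men1. Dpy30, which serves the enzyme core as a dimer, lay at 8.78 and 8.66 in CLP_RAGhigh and at 8.85 and 8.93 in CLP_RAGlow. These did not overlap, but the difference was small, -0.17 ± 0.27. The subunits of the shared core thus had differences of both signs.

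Other subunits of these complexes were read from lists. For the counts of these lists and those below, 2.35% of all genes were higher and 2.94% lower at an unadjusted limma p under 0.05. Of 25 further Polycomb genes measured, 2 lay higher and 0 lower in CLP_RAGhigh at an unadjusted limma p under 0.05, 0 passed after adjustment, and the median was -0.02. The 2 were Mga, the DNA-binding subunit of the Pcgf6 complex, at 8.77 and 8.80 against 7.55 and 8.11, and Bcorl1, a subunit of the Pcgf1 complex, at 5.02 and 4.92 against 4.34 and 4.15. Mga differed by 0.95 ± 0.34 and Bcorl1 by 0.72 ± 0.29, with adjusted p of 0.887 and 0.928. Averaging probe sets gave 0.20 for Mga, of whose 5 probe sets 4 were above 0 and the lowest was at -0.99. Rbbp4, the histone-binding subunit of PRC2, was high on all arrays, between 12.01 and 12.28, and differed by -0.17 ± 0.10. Its 4 probe sets ran from -1.24 to 0.012, and averaging them gave -0.38.

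Of 18 further trithorax and lysine 4 genes measured, 2 were lower and 0 higher at an unadjusted limma p under 0.05, with a median of 0.10. Pagr1a, a subunit of the MLL complexes that hold Kdm6a, read 7.20 and 6.48 in CLP_RAGhigh and 8.35 and 8.02 in CLP_RAGlow. All 3 of its probe sets were lower in CLP_RAGhigh, from -1.54 to -0.99, and the adjusted limma p was 0.813. The demethylases of lysine 4 differed in sign, with the X-linked Kdm5c lower in CLP_RAGhigh by 0.517-fold and Kdm5a higher by 2.01-fold, the latter with an unadjusted limma p of 0.069. Averaging all probe sets of each gene gave log2 differences of -0.44 and 0.52. Of 28 other histone methyltransferases and demethylases, 1 was higher and 0 lower at that p. It was Kmt5b, which methylates lysine 20 of histone H4, at 0.95 ± 0.36, with probe sets from -1.32 to 1.39. Kdm4c and Kdm4b, demethylases of lysine 9, differed by 0.75 ± 0.35 and 0.65 ± 0.32 without passing at either threshold.

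Genes that Polycomb is known to silence were read as a list of 16. At an unadjusted limma p under 0.05, 1 was higher and 2 were lower in CLP_RAGhigh, 0 passed after adjustment, and the median was 0.04. The higher one was Cdkn1a, an inhibitor of cyclin-dependent kinases, at 8.37 and 8.27 against 7.34 and 6.97. It differed by 1.17 ± 0.34, with an adjusted limma p of 0.813, and its second probe set gave 1.45. The lower ones were Cdkn1c and Hoxa10, which differed by -1.33 ± 0.26 and -0.79 ± 0.27. Their levels in CLP_RAGhigh, between 3.14 and 3.43, were below the median of all probe sets. The other Hoxa10 probe set went the other way, at 0.23, and averaging the 2 gave -0.28. Neither Hoxa10 probe set had a mean that reached the median of all probe sets. Of the 16 genes, 9 had a mean below the median of all probe sets.

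The deviations by array were small for PRC2 and did not follow the groups for PRC1. The median deviation of the 8 PRC2 genes from each gene's own mean lay between -0.05 and 0.02 on the 4 arrays. That of the 18 PRC1 genes was 0.17 and -0.23 on the CLP_RAGhigh arrays and 0.09 and -0.11 on the CLP_RAGlow arrays, so that replicates differed more than groups did. Without CLP_RAGhigh replicate 1 the PRC1 median difference was -0.30 in place of -0.013. The G2 and M phase genes were at -0.83 and 0.067 on the CLP_RAGhigh arrays and at 0.073 and 0.85 on the CLP_RAGlow arrays. CLP_RAGhigh replicate 2 and CLP_RAGlow replicate 1 were thus nearly equal, and replicates differed widely here too. The part of cell cycle, handling of the cells or RNA quality in single genes was not tested.

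**Figure D5:**
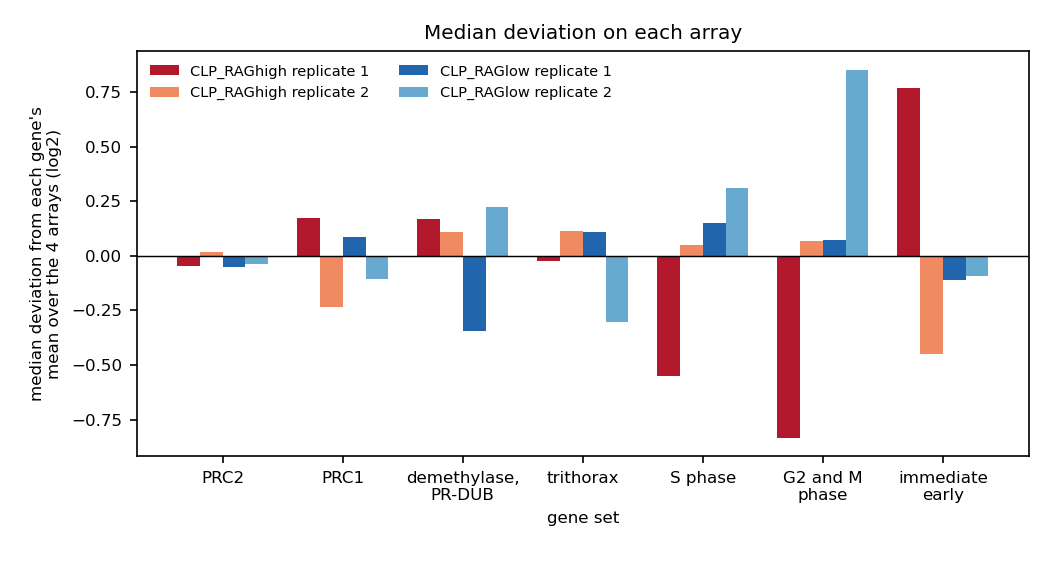
Median log2 deviation from each gene's mean over the 4 arrays (vertical axis, bars from 0) for the 4 groups of chromatin regulators and for S phase, G2 and M phase and immediate early genes, 1 bar per array. The PRC2 bars stay between -0.05 and 0.02, and the cell cycle bars span -0.83 to 0.85.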

How the data were processed

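RNA of sorted cells went through a double amplification and biotin labelling before it was read on the MOE430_2 arrays, per the labels and the series' design text. The authors deposited intensity values from the RMA algorithm, per the same text, 1 per probe set, with software and version not given in the sources used here. The deposited intensity values ran from 2.35 to 19893, a linear scale, so log2 was taken. Of 45037 probe sets without controls, 34945 were annotated to 1 gene, 932 to several and 9160 to none, and 20 held the same value on all arrays. No detection calls were used, so a level near the median log2 value of 3.88 may be background. Levels of different probe sets are no measure of relative RNA amounts.

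Groups were compared over all 18193 genes with limma 3.58.1 in R 4.3.3 (lmFit, and eBayes with trend), as two-sided tests with Benjamini-Hochberg adjustment and 2 residual and 3.75 prior degrees of freedom. Differences are CLP_RAGhigh minus CLP_RAGlow on the log2 scale, with the fit's SE. The fit was run on simulated data with known shifts and independent noise, as a check of its mean estimates. No effect shared by arrays was simulated, so that check does not bear on such effects in these data. By rule, values on each array and the difference with its SE are given for the 12 members with the smallest p. The same holds for Ezh2, Bmi1, Rnf2, Kdm6b and Dpy30. A p-value of its own is given for only part of these genes. Values on each array were added for Eed, Suz12, Jarid2, Pcgf6 and Kdm6a outside it, and up to 3 genes are named from each further pathway list. Uty, Xist, Eif2s3y and Kdm5d were named after their values were seen. Members and lists were chosen with earlier results of these data known. Lists are described by counts and medians, without a set test. Alternatives were other probe set rules, an offset of 32, a filter on dim genes, no trend, repeated normalization, array weights, a replicate block and leaving out each array. Figures were drawn with matplotlib 3.10.9.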

Additional observations from a re-analysis of the deposited data

How the results depend on the processing

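With limma, 0 of the 36 regulators passed an adjusted p under 0.05 under the 8 alternatives that kept all 4 arrays, with a lowest adjusted p of 0.745, without dim genes. The 4 fits that leave out an array take the spread from the other group alone and assume that the lone array varies like it, so their p-values say nothing about stability. Over all genes, 0 passed in the fit reported, 2 with the mean of all probe sets, 1 without dim genes, 3 with quantile normalization repeated and 7 with the replicate block. Over all genes, the deviations of same-numbered arrays from their group means had a correlation of r = -0.025. A value over all genes cannot show whether part of the genes share a batch, and the labels name no block. Shared handling of same-numbered arrays was not tested. At an unadjusted p under 0.05, 1 regulator, Yaf2, passed with an offset of 32, with no trend and with the replicate block. The direction was kept under all alternatives by 15 of the 36 genes. The filter on dim genes, no trend, array weights and the replicate block left every regulator's difference unchanged, so they could not turn a direction. Averaging probe sets moved the median difference of PRC2 to 0.22 and of the trithorax genes to -0.15, and turned Suz12 (0.22), Phf19 (0.21), Pcgf2 (-0.13), Pcgf6 (0.30), Cbx7 (0.10), Phc3 (-0.095), Kdm6a (0.11), Kdm6b (0.077), Asxl2 (-0.010) and Men1 (-0.15). Of the genes turned by averaging, Pcgf2, Pcgf6, Cbx7 and Phc3 had only 1 probe set at or above the median level, the one used. The Kdm6a average took in a probe set at 1.15 that was below this level. Asxl2 probe sets at -0.46 and -0.34 were below it as well. Without probe sets whose names end in _x_at, _s_at or _a_at, Ezh1 was at -0.28, from a probe set below the median level. Suz12 was at 0.42, and Yaf2 had no value. Repeated quantile normalization put Phf19 at 0.030. Leaving out 1 array at a time gave median differences of 0.018 to 0.083 for PRC2, -0.30 to 0.16 for PRC1, 0.073 to 0.29 for the demethylases and PR-DUB and -0.0013 to 0.41 for the trithorax genes. Of the 19 genes that kept their sign, 16 moved by over 1.5 times in at least 1 of these fits, and Pcgf5, Phc1 and Yaf2 did not. Both signs were found for 17 genes, with the ranges Ash2l -0.0013 to 0.74, Bmi1 -0.60 to 0.85, Cbx2 -0.069 to 0.56, Cbx7 -0.75 to 0.28, Eed -0.26 to 0.37, Ezh2 -0.37 to 0.16, Kdm2b -0.069 to 0.11, Kdm6a -0.98 to 0.13, Kdm6b -1.21 to 0.26, L3mbtl2 -0.27 to 0.36, Mtf2 -0.16 to 0.21, Pcgf2 -0.32 to 0.32, Pcgf6 -1.35 to 0.50, Phf19 -0.027 to 0.022, Ring1 -0.28 to 0.22, Rnf2 -0.33 to 0.061, Suz12 -0.26 to 0.26. For these turns the cause was not tested.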
